A study of Danio rerio with 8 samples.

Results

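ATF7IP, the SETDB1 methyltransferase, some other enzymes that methylate lysine 9 of histone H3 (H3K9) and MPHOSPH8, a protein that reads this mark, were followed. The RNA came from zebrafish embryos exposed to 7,17-diHDPAn-3 or kept as controls. Members were the rows of the gene count table whose symbol was one of 10 names (atf7ip, setdb1a, setdb1b, setdb2, ehmt1a, ehmt1b, ehmt2, suv39h1a, suv39h1b, mphosph8), with case ignored and with or without the a or b that marks duplicated zebrafish genes. 9 of the 32020 rows matched, and they carry 9 of the 10 names. setdb2 matched no row and is not analysed here. The name table writes most of these genes in the human style: setdb1a has a row of its own beside one named SETDB1, ehmt1a one beside a row named EHMT1, and 2 rows are named SUV39H1, with nothing in the files to say which is suv39h1a. The set was proposed because atf7ip had the smallest p-value of all genes in the comparison of treated with control libraries, so the treated and control values of atf7ip are given as a description with no test.

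The series holds 4 treated libraries (numbered 5 to 8), from embryos given 7,17-diHDPAn-3 (a lipid mediator made from the omega-3 acid docosapentaenoic acid by adding hydroxyl groups), and 4 control libraries (1 to 4). Both groups are labelled as embryo tissue with erythrocytes and their progenitors as the cell type, and all library names contain gata_1. The name of control 4 also holds a mark that the other control names lack, and its meaning is not stated there. The study's design text names the AB wild-type strain and the lines Tg(gata1: Dsred) and Tg(CD41:GFP), exposures at 1.5 µM from 11 to 36 hours after fertilization in a screen, and a dose search from 1 to 1.75 µM in ethanol. Which fish, dose, hours or vehicle these 8 libraries had, how many embryos went into each, and whether cells were sorted, is not given in the sources used here. No source says whether libraries of the same group had separate parents or cultures. P-values therefore reflect only how much these samples vary, which may be technical.

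Methylation of H3K9 is a mark of silent chromatin. SETDB1 adds it mainly at retroelements and silenced genes, and in human and mouse cells ATF7IP binds SETDB1, keeps it in the nucleus and protects it from degradation. MPHOSPH8 binds the mark as part of the HUSH complex, which recruits SETDB1 in human cells. SUV39H1 methylates H3K9 at the repeats around centromeres, and EHMT1 and EHMT2 (also called GLP and G9a) act as a pair on H3K9 in gene-rich chromatin.

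Libraries held between 2502636 and 4794081 counts. Levels below are CPM, the counts of a row scaled to a fixed library total with TMM-adjusted library sizes. Markers of several tissues were present in every library. The 27 red cell rows summed to 7237 to 18436 CPM in treated and 7645 to 18180 CPM in control libraries, and 24 of them had counts. The 38 muscle rows summed to 13086 to 29836 CPM in treated and 2410 to 21290 CPM in control libraries, with the lowest sum in control 1. The 24 epidermal rows summed to 8911 to 11507 and 6985 to 13488 CPM, and the 26 neural rows to 3195 to 3469 and 3166 to 3453 CPM, in treated and control libraries. The values of the chromatin genes thus come from mixed tissue, and fewer cells of a type and less RNA per cell cannot be told apart in them.

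atf7ip (ENSDARG00000069619) was the 1 member whose treated and control libraries did not overlap, as was so for 4.62% of all genes tested (2.34% higher and 2.29% lower in treated libraries). It stood at 329.8, 263.7, 336.7 and 342.3 CPM in treated 5 to 8, against 466.7, 503.0, 558.3 and 549.4 CPM in control 1 to 4. The highest treated library lay below the lowest control, and treated 6 was the lowest of all 8. The mean was 318.1 ± 36.6 CPM in treated and 519.3 ± 42.7 CPM in control libraries (SD, n = 4 each), a difference of 38.7% of the control mean. The log2 fold change was -0.71 ± 0.11 (SE). Since atf7ip was chosen for its small p in these libraries, the difference may be overstated and its SE understated. The row held 773 to 1263 counts in treated and 1731 to 2380 in control libraries. This gives a counting error between 2.05% and 3.60% per library (reads copied by PCR are not independent, so this covers counting only). The coefficient of variation between libraries was 11.5% in the treated and 8.22% in the control group. By number of counts, and so with no account of transcript length, atf7ip ranked 262 to 375 among all rows in treated and 110 to 167 in control libraries. With 1 library left out the log2 fold change lay between -0.76 (without control 1) and -0.63 (without treated 6). These fits share the libraries from which atf7ip was chosen, so they do not remove the effect of that choice.

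The comparison asked which transcripts differ after exposure. Over 14249 genes tested together, edgeR's quasi-likelihood test called 0 genes (0% of those tested) at the Benjamini-Hochberg threshold of 0.05, and so 0 of the 8 members that passed the low-count filter. 987 genes (6.93%) had an unadjusted p of 0.05 or less, among them 0 of the 7 tested members other than atf7ip. Groups without overlap and with lower treated values were found in 326 genes, 2.29% of those tested, of which atf7ip is 1. limma-voom called 0 genes (0%). DESeq2 called 18 genes (0.206% of the 8723 with an adjusted p), among them 0 of those 7 members. Since atf7ip was picked from this contrast, nothing is read from its own p-values or calls. The standard error of a log2 fold change had a median of 0.15 over the 8 tested members and 0.28 over all genes tested. In simulated counts with known differences, the edgeR test called 0 of 50 genes at 1.5-fold and 18 of 50 at 2-fold. A lack of calls, here and in the lists below, therefore does not show equal levels.

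**Figure D1:**
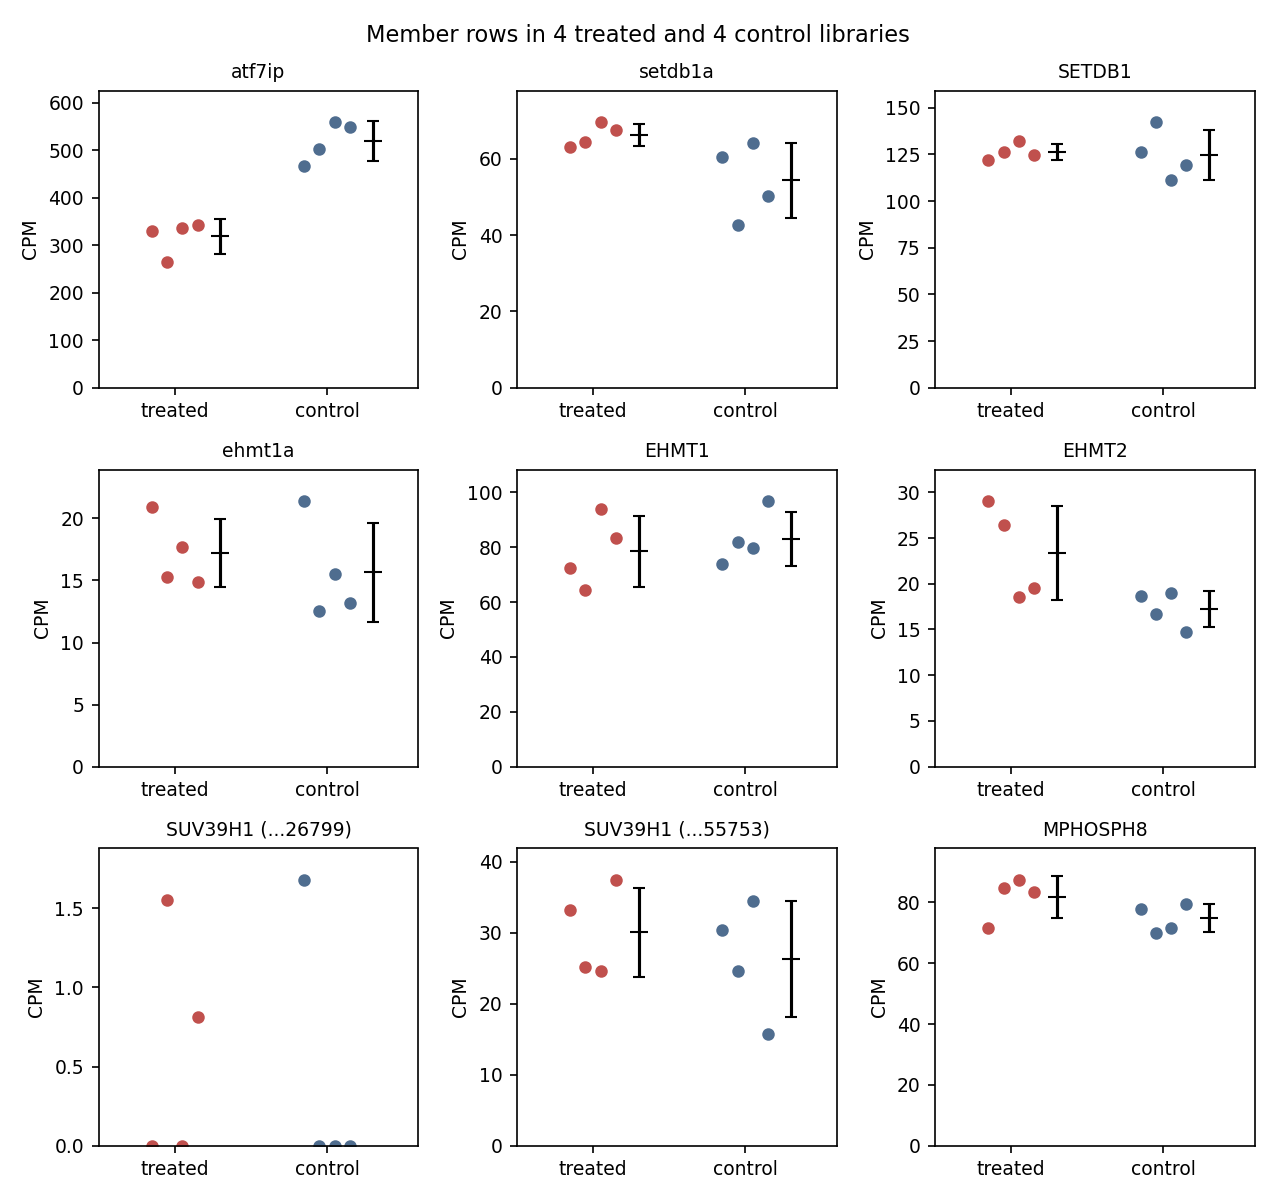
CPM of the 9 member rows in the 4 treated (left, red) and 4 control (right, blue) libraries, 1 point per library, with the mean and SD as a bar beside each group of the 8 tested rows. Treated atf7ip values lie between 263.7 and 342.3 CPM, below all controls (466.7 to 558.3 CPM), and the groups overlap in the other 8 rows.

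SETDB1, the enzyme that ATF7IP binds, had overlapping treated and control values in both of its rows. The SETDB1 row (ENSDARG00000099021) stood at 122.0, 126.4, 132.2 and 124.4 CPM in treated 5 to 8, against 126.1, 142.2, 111.3 and 119.1 CPM in control 1 to 4, and all treated values lay within the range of the controls. Its log2 fold change was 0.02 ± 0.11 (SE, 95% interval -0.22 to 0.26, edgeR adjusted p = 0.984), and its sign turned in 4 of the alternatives below. The duplicate setdb1a stood at 63.1, 64.5, 69.6 and 67.5 CPM in treated 5 to 8, against 60.6, 42.6, 64.2 and 50.3 CPM in control 1 to 4. 3 of the 4 treated values were above all controls, and treated 5 lay below control 3. The log2 fold change of setdb1a was 0.28 ± 0.15 (SE, 95% interval -0.04 to 0.61, edgeR adjusted p = 0.761), and it was 0.18 without control 2. Neither transcript was shown to differ between the groups.

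MPHOSPH8, the HUSH reader of the mark, stood at 71.7, 84.7, 87.2 and 83.5 CPM in treated 5 to 8, against 78.0, 70.1, 71.6 and 79.4 CPM in control 1 to 4. Treated 6, 7 and 8 were above all controls, and treated 5 was in their range. The log2 fold change was 0.13 ± 0.13 (SE, 95% interval -0.14 to 0.40, edgeR adjusted p = 0.871).

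The 2 rows named SUV39H1 differed widely in depth. ENSDARG00000055753 stood at 33.3, 25.1, 24.6 and 37.4 CPM in treated 5 to 8, against 30.4, 24.6, 34.5 and 15.7 CPM in control 1 to 4, with the lowest value in control 4 and overlap between the groups. Its log2 fold change of 0.20 ± 0.24 (SE, 95% interval -0.32 to 0.72, edgeR adjusted p = 0.910) was 0.02 without control 4. ENSDARG00000026799 held 0, 6, 0 and 3 counts in treated 5 to 8, against 8, 0, 0 and 0 counts in control 1 to 4, and did not pass the low-count filter. Reads of near-identical copies may be split or dropped in counting, so the values of the paired rows are uncertain.

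EHMT1, the GLP enzyme, stood at 72.5, 64.2, 93.8 and 83.2 CPM in treated 5 to 8, against 73.8, 81.9, 79.7 and 96.7 CPM in control 1 to 4, with wide overlap. It was the other member with a lower treated mean, at a log2 fold change of -0.08 ± 0.15 (SE, 95% interval -0.39 to 0.23, edgeR adjusted p = 0.944). Its duplicate ehmt1a, with 48 to 102 counts per library, had 0.12 ± 0.24 (SE, 95% interval -0.39 to 0.64, edgeR adjusted p = 0.949), at 14.9 to 20.9 CPM in treated and 12.6 to 21.4 CPM in control libraries. The ehmt1a log2 fold change ran from 0.024 without treated 5 to 0.32 without control 1. EHMT2, the G9a enzyme, stood at 29.0, 26.4, 18.6 and 19.5 CPM in treated 5 to 8, against 18.6, 16.7, 19.0 and 14.8 CPM in control 1 to 4. Treated 5 and 6 lay well above the controls, and treated 7 lay within their range. With 0.43 ± 0.22 (SE, 95% interval -0.04 to 0.90, edgeR adjusted p = 0.745), EHMT2 had the highest log2 fold change of the members. Its row held only 59 to 102 counts per library, and the log2 fold change ran from 0.32 without treated 5 to 0.52 without treated 7.

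**Figure D2:**
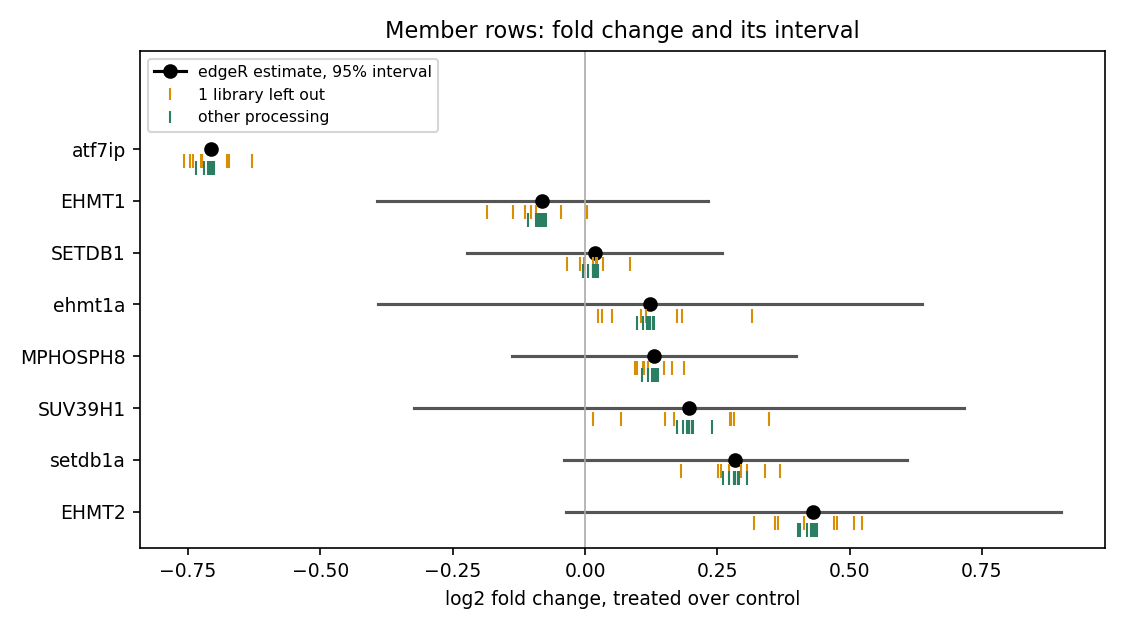
Log2 fold change, treated over control, of the 8 tested member rows from edgeR (black points) with 95% intervals (lines, none drawn for atf7ip), and the estimates with 1 library left out (orange ticks) or under other processing (green ticks). The estimate for atf7ip is -0.71, and the intervals of the other 7 rows include 0 and have lower ends between -0.39 and -0.04.

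Over the 7 tested members other than atf7ip, 6 had higher and 1 had lower treated values, and the median of their log2 fold changes was 0.13, beside -0.0045 over all genes tested (49.5% higher and 50.5% lower). Leaving out control 4 gave a median of 0.05, and leaving out control 1, the library with the least muscle signal, gave 0.28. The other 8 rows summed to 412.5, 408.3, 443.7 and 431.2 CPM in treated 5 to 8, against 410.5, 390.6, 395.8 and 389.2 CPM in control 1 to 4. Treated 6 lay just below control 1 and treated 5 just above it. The sums of treated 7 and treated 8 were further above all controls.

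The balance of atf7ip to SETDB1, or to the other member rows, within a library does not depend on scaling between libraries. The atf7ip row held 2.70, 2.09, 2.55 and 2.75 counts per SETDB1 count in treated 5 to 8, against 3.70, 3.54, 5.02 and 4.61 in control 1 to 4. The treated libraries lay below all controls, with 2.52 ± 0.303 in treated and 4.22 ± 0.713 in control libraries (SD, n = 4 each). Against the summed counts of the other 8 member rows the ratio was 0.749 ± 0.0713 in treated and 1.31 ± 0.130 in control libraries, again without overlap. These ratios also carry the lengths of the transcripts, so they compare libraries and not the genes, and they share the atf7ip counts by which the set was chosen.

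**Figure D3:**
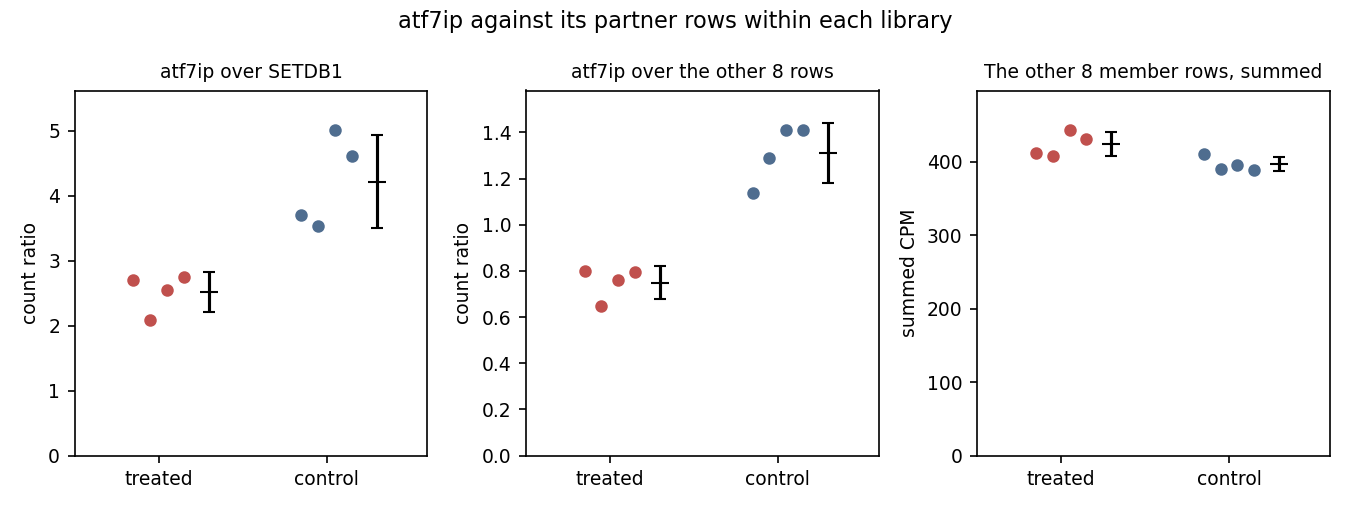
Counts of atf7ip divided by those of SETDB1 (left panel) and by those of the other 8 member rows together (middle), and the summed CPM of these 8 rows (right), 1 point per library with mean and SD, treated left of control. Both ratios are lower in all treated libraries, at 2.09 to 2.75 against 3.54 to 5.02 and at 0.646 to 0.799 against 1.14 to 1.41, and the summed CPM overlap between the groups.

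Among the other proteins that work with ATF7IP, SETDB1 or HUSH, 18 of 19 rows were tested and edgeR called 0 higher and 0 lower. 12 had higher and 6 lower treated values (median log2 fold change 0.09). The widest difference was that of atf7ip2, the paralog of atf7ip, which stood at 9.39, 4.40, 14.99 and 7.59 CPM in treated 5 to 8, against 3.14, 3.59, 6.13 and 5.31 CPM in control 1 to 4. Treated 6 lay within the controls. Its log2 fold change of 1.00 ± 0.41 (SE, edgeR adjusted p = 0.637) was 0.63 without treated 7, and each library held between 14 and 50 counts. tasorb, a zebrafish gene for the HUSH scaffold TASOR, averaged 106.3 ± 9.61 CPM in treated and 123.2 ± 11.0 CPM in control libraries (log2 fold change -0.21 ± 0.12, SE, edgeR adjusted p = 0.773). MORC2, an ATPase that compacts chromatin at HUSH targets in human cells, averaged 87.8 ± 13.6 CPM in treated and 75.9 ± 5.60 CPM in control libraries (0.21 ± 0.14, SE, edgeR adjusted p = 0.813), and the log2 fold change was 0.097 without treated 7. Of 21 tested rows of the SUMO and ubiquitin pathways (SUMO on corepressors recruits SETDB1 in human cells), 12 had higher and 9 lower values (median 0.02) and 0 were called. The SUMO protease senp7b had the smallest p among them, at 22.7 ± 2.97 CPM in treated and 16.5 ± 4.73 CPM in control libraries. Its groups overlapped, and the log2 fold change was 0.46 ± 0.24 (SE, edgeR adjusted p = 0.745). PIAS1, from the same list, went the other way, also with overlap. It averaged 34.4 ± 4.86 CPM in treated and 43.1 ± 10.1 CPM in control libraries (-0.33 ± 0.20, SE, edgeR adjusted p = 0.790).

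Readers of the mark and remodellers of heterochromatin mostly had higher treated values, 19 of 23 tested rows against 4 lower, with a median log2 fold change of 0.08 and 0 calls. At an unadjusted p of at most 0.05, 2 were higher and 1 lower, where 3.63% and 3.3% of all genes were. UHRF1, which couples H3K9 methylation to the upkeep of DNA methylation, stood at 136.1, 136.5, 178.4 and 166.4 CPM in treated 5 to 8, against 107.1, 122.7, 128.4 and 100.9 CPM in control 1 to 4. HELLS, a remodeller needed for DNA methylation of repeats, stood at 49.1, 38.6, 52.2 and 36.3 CPM in treated 5 to 8, against 31.2, 34.6, 21.3 and 30.01 CPM in control 1 to 4. All treated values of both genes were above all controls, as in 2.34% of genes tested, and the log2 fold changes were 0.43 ± 0.13 and 0.58 ± 0.20 (SE, edgeR adjusted p = 0.562 and 0.565). The log2 fold change of HELLS ran from 0.46 to 0.67 with 1 library left out. ADNP2, a homeodomain protein related to the HP1 partner ADNP, averaged 106.4 ± 8.65 CPM in treated and 130.9 ± 24.5 CPM in control libraries (-0.30 ± 0.14, SE, edgeR adjusted p = 0.715), and the log2 fold change was -0.17 without control 1.

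Enzymes that remove H3K9 methylation had 4 of 15 tested rows higher and 11 lower, a median log2 fold change of -0.08 and 0 calls. The list also holds riox1, a JmjC oxygenase whose known histone targets are sites other than H3K9, and its difference was the widest, at 9.05 ± 2.96 CPM in treated and 5.87 ± 4.54 CPM in control libraries (0.62 ± 0.45, SE, edgeR adjusted p = 0.834). The riox1 log2 fold change was 0.37 without control 1 and 1.31 without control 2. kdm4ab, a demethylase of H3K9 and H3K36, averaged 42.2 ± 3.82 CPM in treated and 48.0 ± 4.62 CPM in control libraries (-0.18 ± 0.15, SE, edgeR adjusted p = 0.852), and the log2 fold change was -0.12 without treated 6. The 10 tested PRDM rows, a family that holds H3K9 methyltransferases, had 6 higher and 4 lower values, a median of 0.03 and 0 calls.

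Genes of DNA methylation, the silencing mark that works beside H3K9 methylation, had 8 of 20 tested rows higher and 12 lower (median -0.07) and 0 calls. The maintenance enzyme DNMT1 averaged 126.6 ± 7.24 CPM in treated and 106.1 ± 14.1 CPM in control libraries (0.26 ± 0.12, SE, edgeR adjusted p = 0.727). A row named DNMT3A, a de novo methyltransferase, averaged 42.3 ± 6.67 CPM in treated and 56.9 ± 5.99 CPM in control libraries (-0.43 ± 0.16, SE, edgeR adjusted p = 0.618), and treated 5 lay above control 1 by less than 1 CPM. The row dnmt3bb.2, of the same DNMT3 family, went the other way with overlapping groups. It averaged 31.8 ± 3.09 CPM in treated and 23.5 ± 6.18 CPM in control libraries (0.42 ± 0.22, SE, edgeR adjusted p = 0.739). Histone deacetylases and the NuRD complex had 10 of 22 tested rows higher and 12 lower (median -0.01) and 0 calls. In 2 of the 22 the groups did not overlap, as in 4.62% of all genes tested: the class IIa deacetylase HDAC5, at 28.5 to 34.98 CPM in treated and 35.8 to 60.0 CPM in control libraries (-0.59 ± 0.18, SE, edgeR adjusted p = 0.562), and the histone chaperone RBBP4, at 98.9 to 109.8 CPM in treated and 78.4 to 96.7 CPM in control libraries (0.23 ± 0.12, SE, edgeR adjusted p = 0.753).

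Methyltransferases of other histone sites and their cofactors had 20 of 31 tested rows higher and 11 lower (median 0.06) and 0 calls. SMYD1, a methyltransferase of skeletal and heart muscle, had the widest difference, at 14.1 to 33.9 CPM in treated and 1.26 to 12.6 CPM in control libraries. It was the 1 row of the 31 without overlap, and 2.34% of all genes tested were higher without overlap. Its log2 fold change of 1.44 ± 0.55 (SE, edgeR adjusted p = 0.637) was 1.06 without control 1. Muscle markers moved in the same direction, with 32 of 34 tested rows higher and 2 lower, where 49.5% of all genes tested were higher. Of these 34 rows 0 were called and 1 was higher without overlap. At an edgeR unadjusted p of at most 0.05, 3 were higher and 0 lower, where 3.63% and 3.3% of all genes were. The summed muscle values given above overlapped between the groups. The part of muscle in the SMYD1 values was not tested.

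**Figure D4:**
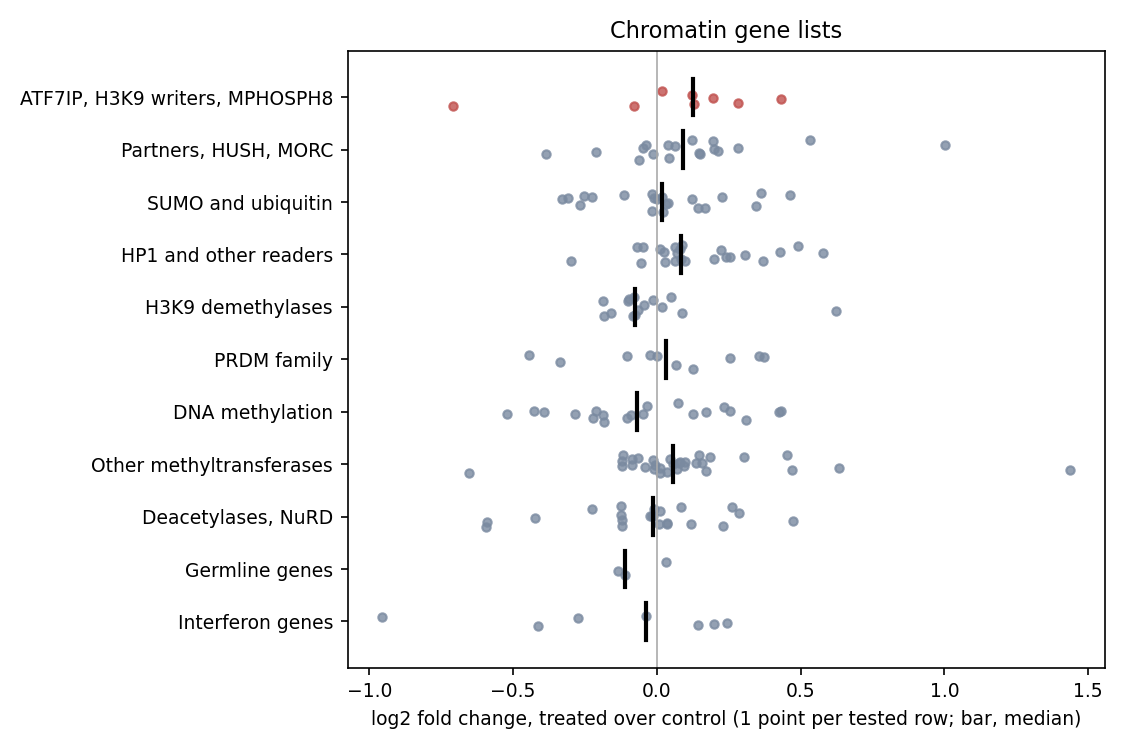
Log2 fold change, treated over control, of each tested row of the member set (top, red) and of 10 further gene lists (grey), with the median of each list as a black bar. The medians lie between -0.11 and 0.13, and atf7ip, at -0.71, is the leftmost point of the member set.

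2 kinds of gene are known to be silenced by SETDB1 or its partners in mouse or human cells, germline genes and, through retroelements that trigger it, the interferon response. Of 30 rows of germline genes 3 passed the low-count filter and 0 were called, with log2 fold changes from -0.13 to 0.03. Of 34 interferon pathway rows 7 passed, with 3 higher, 4 lower, a median of -0.04 and 0 calls. This median was 0.15 with a filter of 5 CPM and ran from -0.21 without control 4 to 0.10 without control 1. adar, which edits double-stranded RNA, averaged 121.4 ± 14.3 CPM in treated and 105.6 ± 7.88 CPM in control libraries (0.20 ± 0.12, SE, edgeR adjusted p = 0.796), and the log2 fold change was 0.13 without treated 6. Most of both lists was therefore too low to compare at this depth, and the table holds genes, so retroelements themselves were not measured here.

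Beside the lower atf7ip values, the summed endothelial markers were higher. Of 18 tested rows 16 had higher and 2 lower treated values, and 0 were called. At an edgeR unadjusted p of at most 0.05, 10 of the 18 were higher and 0 lower, where 3.63% and 3.3% of all genes were. In 4 of the 18 all treated values were above all controls, against 2.34% of all genes tested. The endothelial list, like the others, was chosen with earlier results of these data known. It holds MRC1, which is among the genes of smallest p in this same contrast. Setting the counts of this list against all genes is therefore partly circular, and nothing is concluded from it. All 21 rows had counts, and they summed to 229.1 to 348.1 CPM in treated and 167.8 to 226.7 CPM in control libraries, without overlap. The 10 tested of 18 lens rows were all higher, at summed values of 105.8 to 229.0 CPM in treated and 23.2 to 146.0 CPM in control libraries. Of these 10 rows 6 had an edgeR unadjusted p of at most 0.05, and 3 had no overlap between the groups. Red cell markers went the other way, with 2 of 23 tested rows higher and 21 lower (median log2 fold change -0.26). Of all genes tested 50.5% were lower. Among these 23 rows 0 were called, 0 had an edgeR unadjusted p of at most 0.05, and all overlapped between the groups. The part of these tissues, and of muscle, in the atf7ip values was not tested. With the muscle, lens and red cell rows taken out before scaling the atf7ip log2 fold change was -0.71. That step left the atf7ip counts of every tissue in place and kept the endothelial rows, so it cannot test the part of tissues.

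On the chromosome, as a RefSeq table of another assembly (GRCz12tu) orders its genes, the 5 protein-coding genes on each side of atf7ip matched 11 rows by name, 7 of which were tested. This look at neighbours was chosen after the atf7ip values were seen. The 7 rows stand for 5 neighbours, since GRIN2B and MCOLN1 each name 2 rows of which at most 1 is the neighbour. Of the 7 rows 6 had lower and 1 had higher treated values, where 50.5% of all genes tested were lower. The log2 fold changes lay between -0.56 and 0.32, those of the MCOLN1 rows at 0.32 and -0.41, and 0 rows were called (edgeR adjusted p from 0.684 to 0.995). SEPTIN3, next to atf7ip on one side and a septin of neurons, averaged 29.5 ± 5.36 CPM in treated and 33.9 ± 3.43 CPM in control libraries (-0.20 ± 0.19, SE). On the other side lies grin2bb, a glutamate receptor subunit, to which 2 rows named GRIN2B may belong, with log2 fold changes of -0.56 ± 0.24 and -0.23 ± 0.28 (SE). The strand setting of the counting is not given, so reads of overlapping or antisense transcripts cannot be told apart from those of atf7ip.

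The genes whose log2 CPM followed atf7ip most closely over the 8 libraries, among 10565 named genes of at least 5 CPM, were IVNS1ABP, UNCX, NR1D2, FAM168B and TRAPPC3, with Pearson correlations of 0.98, 0.97, 0.96, 0.95 and 0.94. IVNS1ABP is a kelch-repeat protein, UNCX a homeodomain transcription factor, NR1D2 a nuclear receptor of the circadian clock and TRAPPC3 a subunit of a vesicle tethering complex. IVNS1ABP stood at 90.9, 74.6, 93.5 and 88.4 CPM in treated 5 to 8, against 109.6, 114.7, 128.0 and 139.0 CPM in control 1 to 4. IVNS1ABP, UNCX, NR1D2, FAM168B and TRAPPC3 all shared with atf7ip the lowest value in treated 6. These correlations contain the difference between the groups by which atf7ip was chosen, the libraries share their depth and tissue makeup, and 8 points are few for so many genes.

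**Figure D5:**
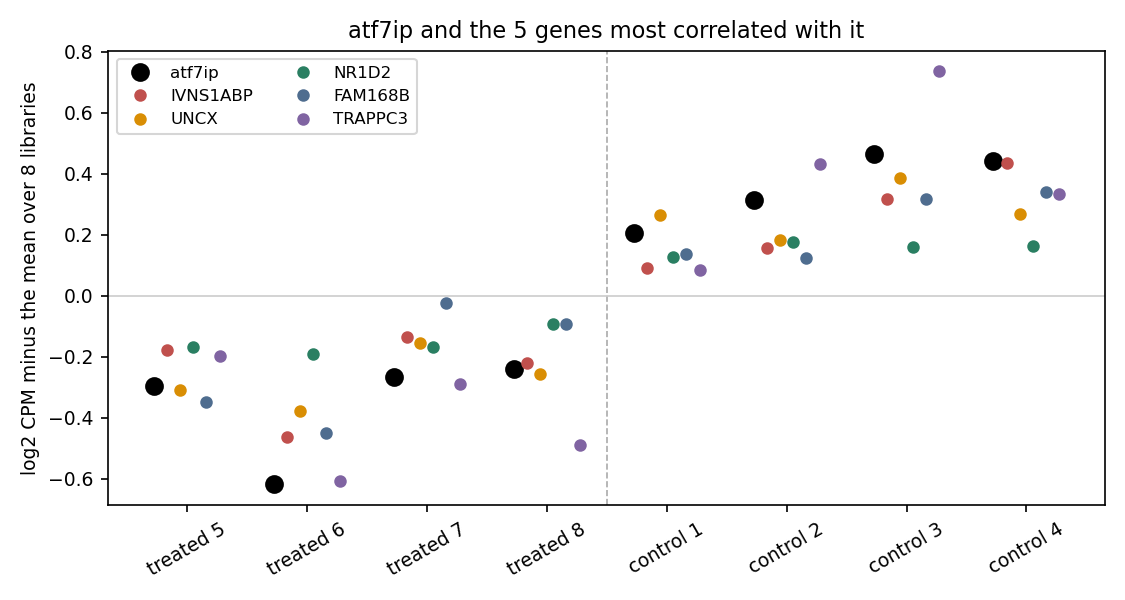
Log2 CPM of atf7ip (large black points) and of the 5 genes most correlated with it, each minus its own mean over the 8 libraries, with treated libraries left of the dashed line. All 6 genes lie below their mean in the 4 treated libraries and above it in the 4 controls.

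With each group centred on its own mean, HIVEP2, lama4, ECE2, nudt4a and tgoln2 came first, with correlations of 0.98, 0.96, 0.96, 0.94 and 0.94 over the 8 libraries. Like atf7ip, all of these genes had their lowest treated value in treated 6, and correlations without that library were not computed. HIVEP2, a zinc finger transcription factor, stood at 139.5, 84.2, 152.9 and 144.7 CPM in treated 5 to 8, against 130.5, 144.0, 197.1 and 201.1 CPM in control 1 to 4, so that its groups overlapped. IVNS1ABP ranked 19 and UNCX 494 by this measure. Of the members, EHMT1 had the highest correlation with atf7ip, at 0.48 over the 8 libraries and 0.76 within groups. EHMT1 also had its lowest treated value in treated 6. SETDB1 had -0.23 and -0.34, setdb1a -0.59 and 0.13, EHMT2 -0.76 and -0.46, and MPHOSPH8 -0.57 and -0.18.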

How the data were processed

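What the authors deposited is 1 table of gene counts, in whole numbers, covering all 8 libraries. Per the labels' protocols, total RNA went into a stranded low-input kit that removes ribosomal cDNA with mammalian probes, and was sequenced as paired 100 bp reads. The submitters' processing notes list HISAT2 2.1.0 and StringTie 1.3.3b, Trim Galore 0.5.0 and CASAVA 1.8.2, DESeq2 1.22.1 and the build GRCz11, and do not say what each did. Not given in the sources used here are the gene annotation, how counting was done and whether it used strand. Symbols came from a supplied name table: 3045 rows had none and held 23.8% to 26.6% of the counts. 0 sample columns were left out.

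With edgeR 4.0.16 in R 4.3.3, library sizes were adjusted by TMM, low rows were removed by filterByExpr, and the 4 treated were compared with the 4 control libraries by the quasi-likelihood F-test with robust dispersion over 14249 genes, Benjamini-Hochberg threshold 0.05. Intervals are 95% and unadjusted. Log2 CPM used a prior count of 2. Replicate numbers do not pair libraries across groups. As alternatives, the scaling or filter was changed, DESeq2 1.42.0 or limma-voom (limma 3.58.1) replaced the test, and the other settings tried were non-robust dispersion, removal of marker rows or, added after seeing the data, of rows without a symbol, and each library left out. The fit was tested on simulated counts, where it called 0, 18, 36 and 39 of 50 genes at 1.5, 2, 3 and 5-fold differences. Of 14049 genes simulated without a difference it called 2. Python 3.11.15 was used for tables and figures.

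The members and gene lists were chosen with earlier results of these data known. Named are all member rows, up to 3 tested genes of smallest p per list with at least 5 CPM, and the 5 genes most correlated with atf7ip, overall and within groups. Of the genes so taken from the lists, some are covered only by their list's counts.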

Additional observations from a re-analysis of the deposited data

Results flagged for a closer look

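2 of 30 sets of 4 libraries checked held 1 library far from the other 3, where chance gives about 1 in 20. In atf7ip, treated 6 stood at 263.7 CPM, and its gap to the next treated library was 0.841 of the range of the group. Without it the atf7ip log2 fold change was -0.63. The summed myeloid markers of control 1 stood at 382.0 CPM, a gap of 0.867 of the range of the controls, and they were 203.6 to 353.7 CPM in treated and 287.4 to 300.0 CPM in the other control libraries.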

How the results depend on the processing

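The atf7ip log2 fold change of -0.71 lay between -0.73 and -0.70 under the other scalings, filters, tests and row removals and between -0.76 and -0.63 with 1 library left out, and the log2 ratio of its group means, -0.71, between -0.76 and -0.63 with 1 library left out and at -0.73 with total counts. edgeR called 0 genes with TMM, 4 with no low-count filter and 2 with a filter of 5 CPM, and DESeq2 called 18. Each of those 3 alternatives called 1 member, atf7ip, which was picked from this contrast. With 1 library left out 0 to 1 genes and 0 members were called. The gene was ENSDARG00000099348 without treated 6 and hsp90aa1.1 without treated 7, neither of them a member. The cause was not tested.

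The sign of SETDB1 turned with total counts (-0.0043) and without treated 7 (-0.0088), control 3 (-0.034) or control 4 (-0.0019). EHMT1 turned without treated 6 (0.0033) or control 4 (0.0031), kdm4aa without control 3 (0.014), and the germline gene tdrkh without treated 7 (-0.26), control 2 (-0.18) or control 3 (-0.038). With 1 library left out these ran up to 0.084 for SETDB1 (without control 2), down to -0.18 for EHMT1, down to -0.29 for kdm4aa and up to 0.39 for tdrkh. Likewise the median of the members ran from 0.033 to 0.21, that without atf7ip from 0.051 to 0.28, that of partners, HUSH and MORC from 0.033 to 0.16, that of readers from 0.050 to 0.17, that of DNA methylation from -0.15 to 0.018 that of deacetylases from -0.046 to 0.038, that of the SUMO and ubiquitin rows from -0.029 to 0.051, that of demethylases from -0.11 to -0.024, that of PRDM rows from -0.081 to 0.16 and that of other methyltransferases from 0.010 to 0.066. No paired analysis was made because the replicate numbers, 5 to 8 and 1 to 4, give no pairing. Whether libraries pair across groups in another way is not stated in the sources used here. Low rows such as atf7ip2, ehmt1a and EHMT2, and the second SUV39H1 row, are limited by depth.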
